A study of Sus scrofa with 36 samples.

Results

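The claudin and keratin genes of the pig were followed across fibroblasts, induced pluripotent stem cells and differentiating cells. They were chosen by name alone: every gene whose symbol is CLDN with a number, or KRT with a number and an optional letter from A to C. The rule used no measured value and found 57 genes of 20683 in the tables, 22 claudins and 35 keratins. Some keratin symbols, KRT7, KRT13, KRT14, KRT16 and KRT17 among them, were not found, so those genes could not be analysed here.

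Claudins are membrane-spanning proteins that join neighbouring epithelial cells at the tight junction. Most of them tighten the seal, while others form pores that let chosen ions pass between the cells. Keratins are the intermediate filaments of epithelia, and each filament needs an acidic type I keratin paired with a basic type II keratin. The filaments are anchored at desmosomes and give the cell sheet its strength. KRT8 (type II) with KRT18 or KRT19 (type I) is the pair of simple epithelia and of the early embryo, whereas KRT5, KRT4 and KRT6A (type II) belong to stratified epithelia.

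The study collected 36 bulk RNA-seq libraries in 11 groups. Its first question was how undifferentiated induced pluripotent clones differ from pig fibroblasts, with 4 fibroblast libraries, 3 of clone 1, 4 of clone 2 and 4 of clone 3. The labels give clone 1 as PiPS-EP1 minusPD (c4 p11), clone 2 as PiPS-EP5 minusPD minusA83 (c12 p10) and clone 3 as PiPS-EP5 minusPD minusA83 (c18 p15). Clone and culture thus cannot be told apart where clone 1 is set against clone 2 or 3. The labels of clones 2 and 3 differ only in the c and p numbers. The other questions concerned differentiation, all of it from 1 clone, clone 8, with 3 libraries in each group. Day 0 was undifferentiated clone 8 after removal of the mouse feeder cells. Day 1 was labelled primitive streak or mesendoderm (medium E8A100ch3), day 2 presomitic mesoderm (S1LDN) and day 3 somite (S2LDN). Other clone 8 libraries were labelled endothelial cells (day 6), beating cardiomyocytes (day 9) and neural progenitors (day 24). Whether the libraries of one group are separate cultures is not in the labels, and p-values then measure the spread between these libraries, which may be technical.

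Total counts ran from 24314241 to 69879325 in clones 1 to 3, from 6877298 to 36738189 in fibroblasts and from 1845333 to 9727315 in clone 8, so low genes were measured less precisely in clone 8. Identical counts were found in 0 of the 42 within-group library pairs. Clone 3 replicates 2 and 3 lay closer to each other (chi-square per degree of freedom 4.91) than the other clone 3 pairs did (42.8 to 64.0). The fibroblasts split into pairs, with replicates 3 and 4 at 6.16 and replicates 1 and 2 at 25.0, against 106 to 135 between the pairs. The library labelled cardiomyocyte replicate 2 had TNNT2 at 4.28 TPM and PAX6 at 254 TPM, and the library labelled neural progenitor replicate 1 had TNNT2 at 5155 TPM and PAX6 at 0.19 TPM. Both go against their labels, and results that rest on them are given with and without them. In the libraries labelled somite, the summed level of 7 fixed presomitic and somite markers was 24.1 to 33.8 TPM, against 146 to 220 TPM on day 2, and these genes did not move together. MSGN1, TBX6 and HES7 went from 72.8 to 104, 38.4 to 74.1 and 16.1 to 21.8 TPM on day 2 to 0, 0.23 to 2.84 and 0 to 0.31 TPM, whereas FOXC2 went from 1.31 to 2.45 TPM up to 10.98 to 16.45 TPM. TCF15 was at 14.04 to 16.75 TPM on day 2 and 10.79 to 12.96 TPM in the somite libraries. MEOX1 and PAX3 were at 1.60 to 2.98 and 0.54 to 1.30 TPM in the somite libraries. For MEOX1 these values overlapped with those of day 2, and for PAX3 they were above all of them. The fall of the sum thus lay mainly in MSGN1, TBX6 and HES7. Endothelial markers were present in the endothelial libraries, with PECAM1 at 284 TPM and CDH5 at 85.7 TPM.

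Levels below are TPM, a count per gene scaled by length and to the same total in each library, so they can be compared between genes. Differences are log2 changes from a count model fitted across all genes with edgeR. The standard error (SE) beside each is approximate. It was worked back from the test, as the size of the log2 change over the square root of the F statistic. The threshold was an adjusted p of 0.05, and a gene named as higher or lower, or said to have risen or fallen, passed that test. Only 21 to 23 of the 57 genes had enough counts to enter each model, in part because they were high in one of the groups compared. In bulk RNA, fewer cells of a type and less RNA per cell cannot be told apart.

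Of the 57 genes, 18 reached a mean of 10 TPM in at least 1 group. These were CLDN1, CLDN3 to CLDN10 and CLDN12, and KRT4, KRT5, KRT6A, KRT8, KRT18, KRT19, KRT79 and KRT80. Another 6 had their highest group mean between 1 and 10 TPM: CLDN11, CLDN15, KRT10, KRT23, KRT26 and KRT222. A further 22 stayed under 1 TPM in every group mean (CLDN2, CLDN18, CLDN20, CLDN22, CLDN23 and 17 keratins), with a highest single value of 2.88 TPM, for KRT20 in neural progenitor replicate 3. The remaining 11 (CLDN14, CLDN16, CLDN17, CLDN19, CLDN25, KRT31, KRT32, KRT33A, KRT34, KRT35 and KRT82) were at 0 in all 36 libraries. The last 6 of these are hair keratins, and of the epidermal pair KRT1 and KRT10 the first reached at most 0.23 TPM in any library while KRT10 ran from 0.98 to 8.53 TPM.

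The 35 keratins lie in 2 blocks of the genome (Sscrofa11.1, RefSeq positions). Chromosome 12 holds 20 of them between 21115453 and 21778893, starting with KRT19 and ending with KRT222, a keratin-like gene. Chromosome 5 holds the other 15 between 17482454 and 18221432. In that block the type II gene KRT8 (18172423 to 18180277) is next to KRT18 (18217686 to 18221432), a type I gene, with 37408 bases between them. KRT6A is 10933 bases from KRT5, and KRT4 is 9724 bases from KRT79. Among claudins, CLDN3 (chromosome 3, 11019073 to 11020102) and CLDN4 (11039711 to 11053930) are 19608 bases apart. CLDN6 (chromosome 3, 39168506 to 39172631) and CLDN9 (39172731 to 39181827) are only 99 bases apart, so reads at their shared edge may be credited to either. Keratins are a multigene family, and values of close copies are uncertain where reads fit more than 1 gene.

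A few genes carried almost all of the signal. KRT8, KRT18 and KRT19 together made up at least 98.4% of the summed keratin TPM in every library of clones 1 to 3, days 0 to 3 and the endothelial group. CLDN4, CLDN6 and CLDN7 made up 79.9% to 93.0% of the summed claudin TPM in the clones and on days 0 to 3, and 64.8% to 72.8% in the endothelial libraries. In fibroblasts the 2 sums were small: claudins 48.6 to 57.3 TPM, mostly CLDN1 and CLDN12, and keratins 21.6 to 40.1 TPM.

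**Figure D1:**
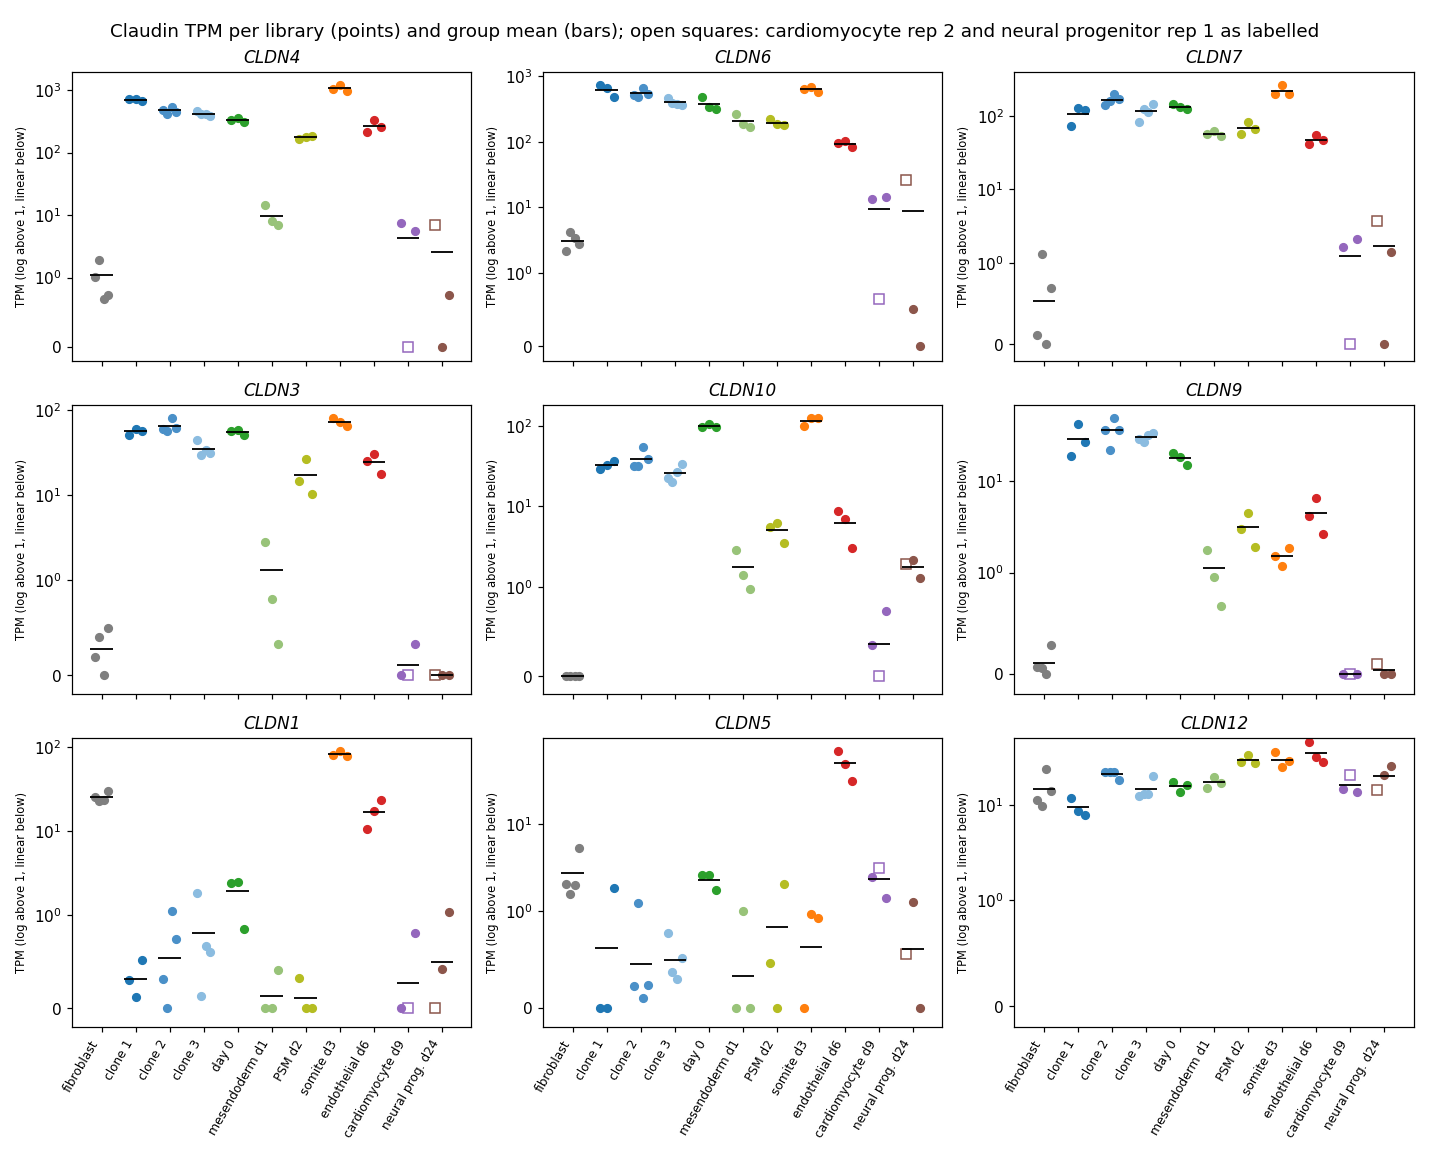
Claudin levels in TPM (vertical axis, logarithmic above 1 and linear below) for each library (points) and group mean (bars) in the 11 groups. Open squares mark cardiomyocyte replicate 2 and neural progenitor replicate 1 as labelled. CLDN4 falls from 306 to 352 TPM on day 0 to 6.88 to 14.3 TPM on day 1 and reaches 970 to 1211 TPM on day 3, while CLDN12 stays between 7.83 and 46.3 TPM in every library.

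The first comparison, clones against fibroblasts, separated the genes of simple epithelia without overlap. CLDN4, a sealing claudin, read 1.02, 1.89, 0.69 and 0.75 TPM in the 4 fibroblast libraries. It read 735, 717 and 672 TPM in clone 1, 481, 414, 545 and 452 TPM in clone 2, and 460, 411, 416 and 386 TPM in clone 3. Every clone library was thus far above every fibroblast library, with clone 1 the highest. The fitted difference was 320-fold (log2 change 8.32, SE 0.28, edgeR adjusted p = 3.5e-14). CLDN6, a claudin typical of embryonic epithelium, stood at 2.15 to 4.23 TPM in fibroblasts and 363 to 732 TPM in the clones, a log2 difference of 7.05 (SE 0.20). CLDN7 (log2 7.59, SE 0.41), CLDN3 (7.39, SE 0.35) and CLDN9 (8.23, SE 0.34) were higher in the clones as well. CLDN10, which forms ion pores, had no count in any fibroblast library and 20.1 to 54.6 TPM in the clones, and was at least 301-fold higher there, with the fibroblasts set to 3 counts over the group.

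Keratins followed the same direction. KRT8 read 3.6, 12.1, 5.93 and 6.7 TPM in fibroblasts and 2469 to 3749 TPM in the 11 clone libraries, with no overlap. Its fitted difference was 375-fold (log2 8.55, SE 0.32, edgeR adjusted p = 1.67e-13). The partners KRT18 (log2 8.91, SE 0.37) and KRT19 (8.88, SE 0.30) differed by about the same amount. KRT6A, KRT79 and KRT5 had no count in fibroblasts and were at least 484-fold, 248-fold and 85.4-fold higher in the clones, while KRT4 and KRT15, which reached at most 1.03 and 0.73 TPM in the clones, were at least 9.10-fold and 8.68-fold higher. KRT10 was higher by a log2 of 1.59 (SE 0.32).

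The other 4 genes that passed ran the other way. CLDN1, a sealing claudin of skin and many other epithelia, read 25.3, 22.9, 23.1 and 30.1 TPM in fibroblasts and at most 1.83 TPM in any clone library (log2 -5.69, SE 0.57, edgeR adjusted p = 7.22e-08). KRT80, a type II keratin of many epithelia, read 10.6, 9.54, 7.34 and 11.01 TPM in fibroblasts against 1.46 to 5.07 TPM in the clones (log2 -1.96, SE 0.21). KRT222 (log2 -6.72, SE 0.93) was at 1.96 to 3.81 TPM in fibroblasts and at most 0.4 TPM in the clones. CLDN5, the claudin of endothelium, was lower in the clones by a log2 of -2.43 (SE 0.92, edgeR adjusted p = 0.0248). That call rests on fibroblast replicate 4, whose 5.29 TPM stood above the 1.59 to 2.06 TPM of the others: without it the log2 change was -1.94 (adjusted p = 0.0977). It was also lost with fibroblast libraries 1 and 2 alone (adjusted p = 0.17) or 3 and 4 alone (0.0612), which were sequenced to different depths. CLDN12, expressed in every library of the series, did not pass (log2 0.35, SE 0.17, adjusted p = 0.0766).

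In all, 15 of the 23 genes tested were higher in the clones and 4 lower, where 38.6% of the 14660 genes tested were higher and 35.9% lower. Their median log2 change was 7.05 (6.42 with the 6 genes at 0 in fibroblasts set to 3 counts), beside 0.11 over all genes. Genes that work with claudins and keratins were counted from 5 lists. Of 22 tight junction partners tested, 16 were higher and 4 lower, among them the higher MARVELD2, MARVELD3 and CRB3 (log2 8.92, SE 0.47). Of 16 desmosome and keratin partners, 12 were higher and 3 lower, with the largest difference in the desmosomal plaque protein DSP (log2 9.75, SE 0.37). Of 18 epithelial regulators, 14 were higher and 3 lower, among the higher GRHL3, which had no count in fibroblasts, and the adhesion genes CDH1 (log2 11.16, SE 0.37) and EPCAM (10.99, SE 0.34). All 6 repressors of epithelial genes were lower, led by SNAI2 (log2 -8.41, SE 0.41), ZEB1 (-6.33, SE 0.39) and TWIST1 (-5.37, SE 0.40). Of 12 other intermediate filament genes 9 were higher and 3 lower, the lower ones being DES, VIM (log2 -3.33, SE 0.11) and LMNA.

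**Figure D2:**
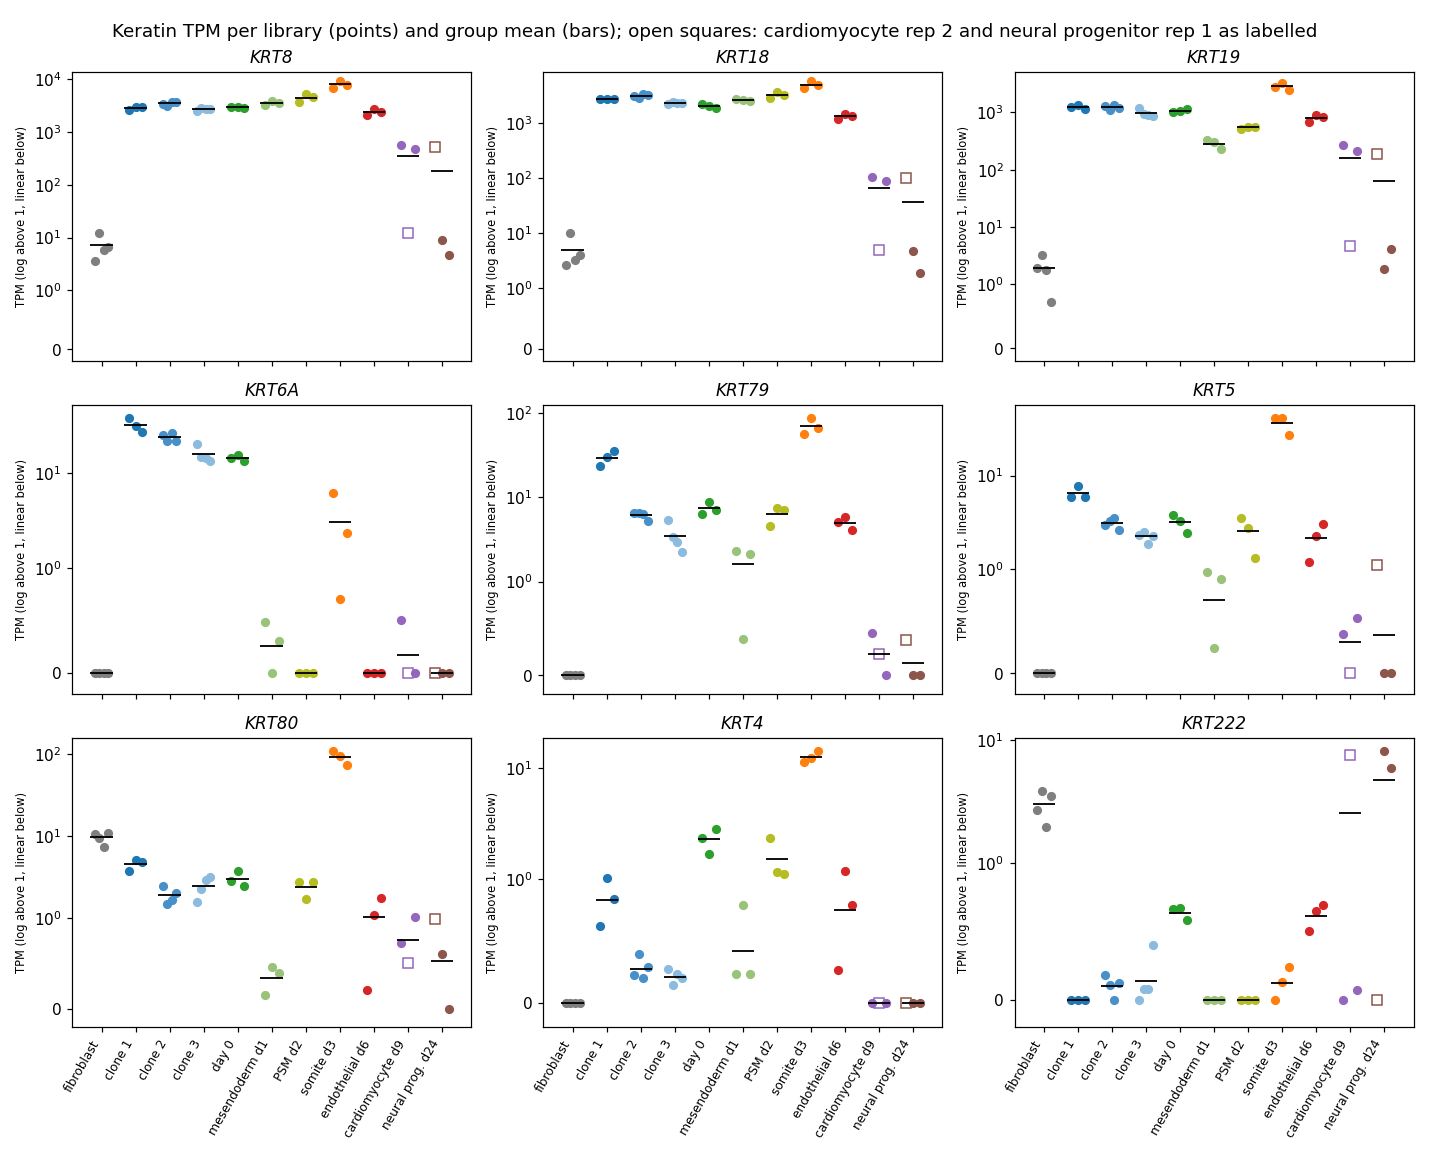
Keratin levels in TPM (vertical axis, logarithmic above 1 and linear below) for each library (points) and group mean (bars) in the 11 groups, with open squares for cardiomyocyte replicate 2 and neural progenitor replicate 1 as labelled. KRT8 lies at 2091 to 9234 TPM in the clones, on days 0 to 3 and in the endothelial libraries, and at 3.6 to 12.1 TPM in fibroblasts. KRT222 has its highest points in cardiomyocyte replicate 2 and in neural progenitor replicates 2 and 3.

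Among the clones, the keratin KRT79, known from the ducts of hair follicles and sebaceous glands, had the largest change of those that passed the test. It read 23.2, 30.2 and 35.1 TPM in clone 1, 6.58, 6.53, 6.38 and 5.27 TPM in clone 2, and 5.44, 3.37, 2.91 and 2.25 TPM in clone 3. Clone 1 did not overlap with the other clones, and was 5.37-fold above clone 2 (log2 2.42, SE 0.32, edgeR adjusted p = 0.000636) and 8.28-fold above clone 3 (log2 3.05, SE 0.33, adjusted p = 0.000124). KRT80 was higher in clone 1 than in clone 2 (log2 1.43, SE 0.29) and CLDN12 lower (log2 -0.98, SE 0.22). Against clone 3, KRT5 (log2 1.53, SE 0.38) and KRT6A (1.03, SE 0.22) were higher in clone 1. KRT5 lost its call without clone 1 replicate 3 or without any one of clone 3 replicates 2, 3 and 4 (adjusted p = 0.0643 to 0.0974), and KRT6A without clone 1 replicate 2 (0.0531) or clone 3 replicate 3 (0.0522).

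CLDN4 was higher in clone 1 than in clone 2 (log2 0.70, SE 0.20, edgeR adjusted p = 0.0401) and clone 3 (log2 0.75, SE 0.20, adjusted p = 0.0368), and its levels did not overlap. The margin is thin: in the first comparison the call was lost without any one of clone 1 replicates 2 and 3 and the 4 clone 2 libraries (adjusted p = 0.067 to 0.108), and in the second without any one of clone 1 replicates 2 and 3 and clone 3 replicates 2, 3 and 4 (0.0865 to 0.102). KRT8, KRT18 and KRT19 passed in none of the comparisons between clones, where their log2 changes lay between -0.12 and 0.33. Of these families, 23 genes were tested between clones. Clone 1 had 3 higher and 1 lower than clone 2, where 4.47% of all genes tested were higher and 4.84% lower. It had 4 higher and none lower than clone 3, where 3.12% of all genes were higher and 3.58% lower. Without clone 1 replicate 2 or 3 or clone 3 replicate 2 or 4 the 4 became 2, and without clone 3 replicate 3 it became 1. DESeq2 found 7 higher and 1 lower there, and 11 genes had an unadjusted p under 0.05 in either direction. Between clones 2 and 3 edgeR called 0 genes in either direction (2.06% and 2.16% of all genes), with 3 at an unadjusted p under 0.05, 1 called by DESeq2 and 3 by limma on log2(TPM + 1).

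In clone 8, the time course opened with a fall of the claudins within 1 day while the main keratin pair held. CLDN4 read 329, 352 and 306 TPM on day 0 and 14.3, 7.95 and 6.88 TPM on day 1. All day 1 libraries were far below all day 0 libraries, a 30.3-fold difference (log2 -4.92, SE 0.20, edgeR adjusted p = 7.72e-13). CLDN10 went from 96.4, 106 and 96.4 TPM to 2.88, 1.42 and 0.98 TPM (log2 -5.58, SE 0.34), and CLDN3 from 56.8, 58.4 and 51.1 TPM to 2.81, 0.8 and 0.33 TPM (log2 -5.16, SE 0.45). CLDN9 fell by a log2 of 3.15 (SE 0.32). The fall was uneven: CLDN7 (log2 -0.98, SE 0.20) and CLDN6 (log2 -0.61, SE 0.13) fell by much less, so that CLDN6, at 169 to 262 TPM, was the most abundant claudin in every day 1 library.

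Of the claudins of few counts, CLDN1 and CLDN5 fell, and CLDN8 and CLDN11 did not pass. CLDN1 had 28 counts over the day 0 libraries and 2 over those of day 1, a ratio of 11.15 (exact 95% counting interval 2.81 to 96.6), and CLDN5 had 24 and 3 (ratio 6.37, interval 1.93 to 33.04). The CLDN5 call was lost without any one of the 3 day 0 libraries or without day 1 replicate 1 or 3 (adjusted p = 0.0536 to 0.139). These intervals cover counting error only. CLDN12 did not pass, at 13.8 to 17.3 TPM before and 15.3 to 19.6 TPM after.

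KRT18 read 2249, 2062 and 1924 TPM on day 0 and 2797, 2694 and 2564 TPM on day 1, and rose by a log2 of 0.61 (SE 0.16, edgeR adjusted p = 0.00583). KRT8 read 2920, 2963 and 2885 TPM, then 3218, 3826 and 3575 TPM (log2 0.53, SE 0.19, adjusted p = 0.0298). The libraries of the 2 days did not overlap for either gene. The rise of KRT8 lost its call without any one of the 3 day 0 libraries or without day 1 replicate 2 or 3 (adjusted p = 0.0634 to 0.115). KRT19, the other type I partner, moved in the opposite direction: 1028, 1068 and 1123 TPM became 325, 299 and 228 TPM (log2 -1.69, SE 0.16, adjusted p = 5.68e-08). Of the less abundant keratins 5 also fell, KRT6A from 13.3 to 15.4 TPM down to 0 to 0.48 TPM (log2 -5.36, SE 0.66), KRT80 by a log2 of 2.93 (SE 0.47), KRT4 by 2.22 (SE 0.54), KRT79 by 1.92 (SE 0.39) and KRT5 by 1.87 (SE 0.45).

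Counted together, 14 of 21 genes tested fell by day 1 and 2 rose, where 20.1% of the 13597 genes tested fell and 20.0% rose. Their median log2 change was -1.87, beside 0.00 over all genes. With all 21 clone 8 libraries in the model, cardiomyocytes and neural progenitors included, 8 fell and 0 rose. Without any one of the 3 day 0 libraries or day 1 replicates 2 and 3, 1 rose. Of the 22 tight junction partners 14 fell and none rose. They included TJP3, the scaffold protein ZO-3 (log2 -5.99, SE 0.39), and occludin, OCLN (log2 -2.36, SE 0.18). Among 16 desmosome and keratin partners 8 fell and none rose (PPL, which links keratins to the desmosome, by a log2 of 3.07, SE 0.28). Of 18 epithelial regulators 11 fell and 1 rose, among those that fell ELF3 (log2 -4.25, SE 0.48), KLF4 (-3.96, SE 0.46) and GRHL3 (-3.55, SE 0.39). Of 6 repressors of epithelial genes 5 rose, led by SNAI1 (log2 4.33, SE 0.23) and TWIST1 (3.56, SE 0.25), and SNAI2 fell. Of 12 other intermediate filament genes 1 rose, GFAP, and 6 fell, led by NEFM (log2 -3.34, SE 0.32).

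Between day 1 and day 2, CLDN4 and CLDN3 came back part of the way. CLDN4 read 166, 177 and 186 TPM on day 2, above all day 1 and below all day 0 libraries (log2 4.26 against day 1, SE 0.20, edgeR adjusted p = 5.75e-12). CLDN3 rose by a log2 of 3.68 (SE 0.49), to 10.4 to 26.9 TPM. CLDN12 rose to 27.8 to 33.5 TPM (log2 0.79, SE 0.19) and KRT19 to 522 to 563.9 TPM (log2 0.95, SE 0.16). KRT80 (log2 2.84, SE 0.49) and KRT79 (1.95, SE 0.40) rose as well. CLDN10, at 3.51 to 6.16 TPM on day 2, remained far below its day 0 level.

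Some smaller rises from day 1 to day 2 depended on single libraries or on the model. CLDN10 (log2 1.46, SE 0.43) lost its call without day 1 replicate 3 or day 2 replicate 2 (adjusted p = 0.062 and 0.0684). CLDN9 (0.99, SE 0.35) lost it without day 1 replicate 2 or 3 or day 2 replicate 1 or 2 (0.0695 to 0.201), and KRT4 (1.81, SE 0.58) without day 1 replicate 1 or 3 or day 2 replicate 1 (0.0798 to 0.0983). KRT5 (1.72, SE 0.48) lost its call when the model held day 1 and day 2 alone (0.0599), all 21 libraries (0.26) or a minimum fold of 2 (0.238). CLDN6, CLDN7, KRT8 and KRT18 did not pass in this step, with log2 changes between -0.05 and 0.32. In total 10 of 21 genes rose and 0 fell by edgeR, where 12.6% of all genes rose and 13.5% fell. A fall was called for 1 gene by DESeq2 and by limma on log2(TPM + 0.1), and 12 of the 21 had an unadjusted p under 0.05 in either direction. With the model over day 1 and day 2 alone 6 rose, and over all 21 libraries 4. The median log2 change was 0.79, beside -0.03 over all genes. The lists of related genes moved both ways: 4 tight junction partners rose and 3 fell, 5 desmosome and keratin partners rose and 3 fell, 5 epithelial regulators rose and 6 fell, 2 other intermediate filament genes rose (VIM and LMNA), and none of the 6 repressors passed.

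Day 3 held the highest claudin and keratin sums of any group. Summed claudins reached 2059 to 2487 TPM, against 479 to 521 TPM on day 2 and 936 to 1153 TPM on day 0. Summed keratins reached 14085 to 18500 TPM, against 7129 to 9482 TPM and 5965 to 6232 TPM. CLDN4 read 1057, 1211 and 970 TPM, 5.27-fold above day 2 (log2 2.40, SE 0.17, edgeR adjusted p = 4.94e-10). CLDN6 read 629, 670 and 575 TPM (log2 1.44, SE 0.13), CLDN7 200.3, 265 and 199.6 TPM (log2 1.45, SE 0.20) and CLDN3 81.2, 72.4 and 65.8 TPM (log2 1.86, SE 0.32). CLDN10 returned from 3.51 to 6.16 TPM to 99.3, 126 and 126 TPM, a 20.4-fold rise (log2 4.35, SE 0.30). No day 3 library overlapped with day 2 for any of these claudins.

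Another change was the appearance of claudins that had been near 0. CLDN1 read 79.5, 89.3 and 78.4 TPM on day 3 and 0.33, 0 and 0 TPM on day 2. That is 750 counts against 1, a ratio of 821 (exact 95% counting interval 147 to 32467), and it put CLDN1 above its fibroblast level of 22.9 to 30.1 TPM. CLDN8, a sealing claudin of the kidney tubule and other tight epithelia, read 10.4, 17.5 and 7.54 TPM after 0 counts on day 2, and was at least 24.2-fold higher. CLDN9 behaved differently from its neighbour CLDN6: it fell from 1.89 to 4.52 TPM to 1.19 to 1.87 TPM (log2 -1.19, SE 0.37, edgeR adjusted p = 0.0113) and stayed far below its 14.96 to 20.5 TPM of day 0. The CLDN9 call was lost without day 2 replicate 2 (log2 -0.93, adjusted p = 0.0614) or day 3 replicate 3 (-0.89, 0.0597). In all, 7 of 16 alternative runs no longer called it. Among them were limma, a minimum fold of 2, only the groups compared and all 21 libraries of clone 8.

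Among the keratins that rose were KRT80, KRT5, KRT79 and KRT4. KRT80 read 2.71, 1.69 and 2.73 TPM on day 2 and 109, 93.3 and 73.8 TPM on day 3, a 32.5-fold rise (log2 5.02, SE 0.32, edgeR adjusted p = 1.7e-10). KRT5, the keratin of basal cells, went from 3.56, 2.76 and 1.32 TPM to 41.1, 41.4 and 27.4 TPM (log2 3.66, SE 0.35). KRT79 went from 4.57, 7.38 and 7.12 TPM to 56.3, 87.4 and 66.6 TPM (log2 3.20, SE 0.32). All day 3 values of these genes stood above all values of every other group, as did those of KRT4, at 11.4 to 14.4 TPM (log2 2.86, SE 0.43 against day 2). KRT6A, which had 0 counts on day 2, reached 6.11, 0.7 and 2.32 TPM and was at least 17.7-fold higher.

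KRT19 rose 4.38-fold to 2733, 3275 and 2481 TPM (log2 2.13, SE 0.16, edgeR adjusted p = 1.55e-09). KRT8 reached 6828, 9234 and 7708 TPM, above all day 2 libraries (3738 to 5191 TPM), with a log2 change of 0.59 (SE 0.19, adjusted p = 0.0131). Its call was lost without day 2 replicate 1 (log2 0.40, adjusted p = 0.0906) or day 3 replicate 2 (0.40, 0.113). KRT18 did not pass (log2 0.38, SE 0.16, adjusted p = 0.0604), although its day 3 libraries, at 4295 to 5751 TPM, lay above those of day 2. KRT10 fell by a log2 of 0.86 (SE 0.32, adjusted p = 0.0313). That call was lost without day 2 replicate 2 or 3 or day 3 replicate 2 or 3 (adjusted p = 0.0529 to 0.0822). In all, 9 of 16 alternative runs no longer called it.

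In this step 14 of 21 genes rose and 2 fell, where 26.6% of all genes rose and 24.5% fell, with a median log2 change of 1.86 beside 0.05. Without day 2 replicate 2 or day 3 replicate 3 none fell, and without day 2 replicate 3 or day 3 replicate 2 only 1 fell. None fell with limma, a minimum fold of 2, only the groups compared or all 21 libraries of clone 8. Of the related genes, 14 of 22 tight junction partners rose and 2 fell (OCLN rose by a log2 of 2.64, SE 0.18, PARD6B by 3.21, SE 0.22), and 11 of 16 desmosome and keratin partners rose and 1 fell (DST, a linker of keratins, rose by 3.14, SE 0.37). Of 18 epithelial regulators 14 rose, among them GRHL3 (log2 3.54, SE 0.31) and ELF3 (3.10, SE 0.28), and CDX2 fell. Of the 6 repressors, SNAI1 fell (log2 -4.04, SE 0.23) and TWIST2 and SNAI2 rose (SNAI2 by 5.69, SE 0.65). Among other intermediate filaments 3 rose, including LMNA and NES, and 2 fell. Markers of other cell types moved in the same libraries. The 4 surface ectoderm markers in the table, KRT5 among them, summed to 58.3 to 78.1 TPM on day 3 and 3.32 to 7.12 TPM on day 2, with GRHL3 at 30.5 TPM and TP63 at 0.33 TPM on day 3. The 6 endoderm markers summed to 1232 to 1607 TPM against 705 to 823 TPM, nearly all of it APOA1, at 1367 TPM on day 3. Within that list FOXA1 and GATA6, at 34.5 to 38.6 and 38.2 to 47.3 TPM on day 3, were above all their day 2 values. SOX17, at 9.64 to 12.9 TPM, was below its 30.4 to 53.4 TPM of day 2, and TTR was at 0. No test result is given for these endoderm markers. The 4 trophectoderm markers summed to 53.2 to 69.8 TPM against 63.1 to 111 TPM. Of these CDX2 went from 52.1 to 98.6 TPM down to 3.98 to 9.51 TPM, and GATA3 (15.9 to 26.2 TPM on day 3), GATA2 (13.7 to 18.5 TPM) and TFAP2C (16.5 to 21.4 TPM) were above all their day 2 values. The fibroblast markers summed to 416 to 643 TPM against 36.8 to 58.9 TPM, those of cardiomyocytes to 271 to 302 TPM against 21.3 to 65.3 TPM, and those of neural progenitors to 270 to 371 TPM against 56.5 to 79.2 TPM. On day 3 COL1A1 and COL1A2 (193 to 310 TPM) made up most of the fibroblast sum. The rest of that list was at 2.14 to 30.4 TPM. Most of the cardiomyocyte sum was MYH7, MYL7 and TNNI1 (78.7 to 100 TPM). TNNT2, ACTN2, NKX2-5 and RYR2 were at 0 to 7.47 TPM. NES and MAP2 (112 to 191 TPM) made up most of the neural progenitor sum. PAX6, SOX1 and DCX were at 0 to 1.25 TPM, and SOX2 and FABP7 at 7.63 to 15.8 TPM. The part of these markers of other cell types in the keratin and claudin levels was not tested.

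**Figure D3:**
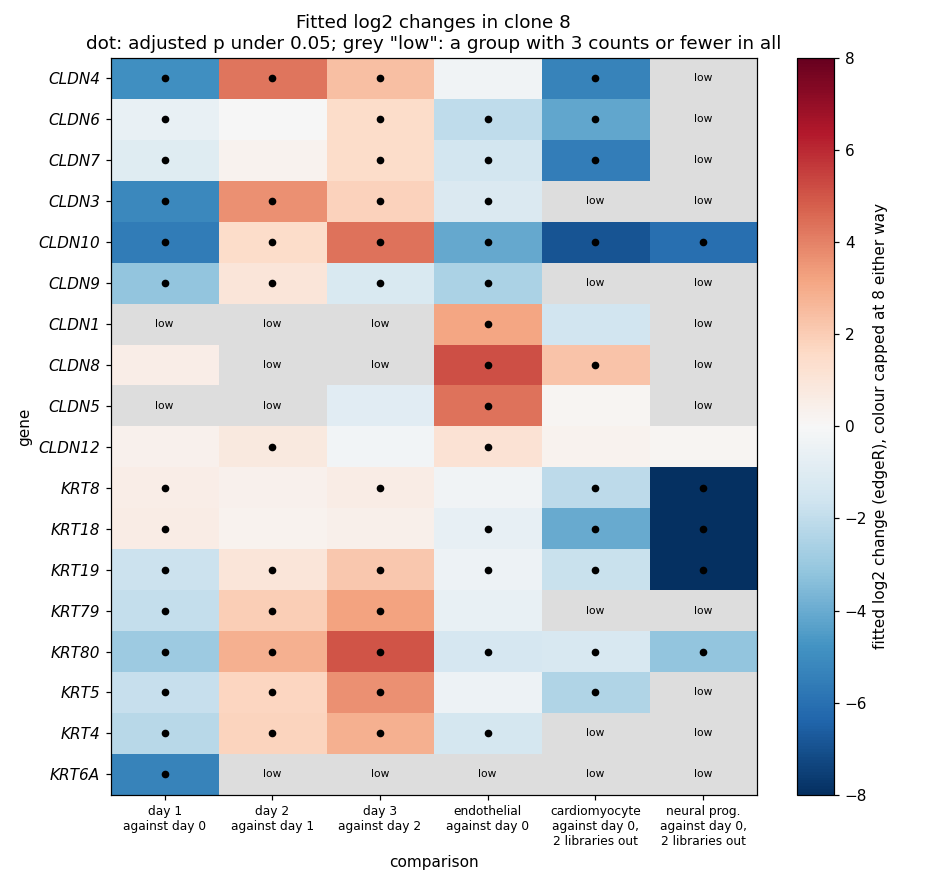
Fitted log2 changes (colour, capped at 8 either way) of 18 claudins and keratins in 6 comparisons within clone 8, with a dot where the edgeR adjusted p was under 0.05 and grey where a group had 3 counts or fewer in all. The last 2 columns leave out cardiomyocyte replicate 2 and neural progenitor replicate 1. Most cells are blue on day 1 and red on day 3, CLDN9 is blue on day 3, and CLDN1, CLDN5 and CLDN8 are red in the endothelial column.

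A comparison of day 3 with day 0 was added after the data had been seen. It had 13 of 21 genes higher on day 3 and 2 lower, where 26.3% of all genes were higher and 25.5% lower. CLDN1 (log2 5.40, SE 0.39), KRT80 (4.93, SE 0.31), CLDN8 (4.02, SE 0.65), KRT5 (3.52, SE 0.33) and KRT79 (3.23, SE 0.31) were the most raised, and KRT4, CLDN4, KRT8, KRT19, KRT18, CLDN12, CLDN6 and CLDN7 were higher by a log2 of 0.73 to 2.44. CLDN9 (log2 -3.36, SE 0.34) and KRT6A (-2.26, SE 0.50) were lower than on day 0. CLDN10 and CLDN3, the claudins with the largest falls on day 1, did not differ from day 0 beyond the test (log2 0.23, SE 0.23, and 0.38, SE 0.29).

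The endothelial libraries of day 6 exchanged some claudins for others. CLDN5, the main claudin of blood vessel endothelium, read 69.3, 49.8 and 31.7 TPM, against 2.58, 2.6 and 1.75 TPM on day 0. No other library of the series exceeded 5.29 TPM, and the difference from day 0 was 20.7-fold (log2 4.37, SE 0.54, edgeR adjusted p = 1.89e-06). CLDN8 read 21.2, 30.6 and 26.0 TPM against 0, 1.34 and 0.68 TPM (log2 5.17, SE 0.61), and CLDN1 read 10.6, 17.2 and 23.2 TPM against 2.44, 2.46 and 0.85 TPM (log2 3.17, SE 0.40). CLDN12 was higher as well, at 28.3 to 46.3 TPM (log2 1.13, SE 0.19). KRT23, a type I keratin, stood at 2.31 to 3.74 TPM, with 103 counts against 3 on day 0 (ratio 36.4, exact 95% counting interval 12.1 to 180).

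CLDN10 was lower than on day 0, at 8.9, 7.02 and 3.0 TPM (log2 -4.09, SE 0.29), as were CLDN9 (-2.54, SE 0.31), CLDN6 (-2.004, SE 0.13), CLDN7 (-1.47, SE 0.20) and CLDN3 (-1.17, SE 0.31). KRT6A had no count in the endothelial libraries and was at least 118-fold lower. KRT80 was lower by a log2 of 1.32 (SE 0.37), and KRT4 was lower by a log2 of 1.43 (SE 0.48). The KRT4 call was lost without day 0 replicate 3 (log2 -1.21, adjusted p = 0.084) or endothelial replicate 1 (-1.14, 0.0671) or 3 (-1.33, 0.0703). KRT18 was lower (log2 -0.66, SE 0.16) and KRT19 slightly lower (-0.42, SE 0.15, adjusted p = 0.0303). The KRT19 call was lost without any one of the 3 day 0 libraries or endothelial replicate 1 or 3 (adjusted p = 0.0599 to 0.227) and with RLE scaling (0.0512).

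CLDN4 and KRT8 remained abundant in these libraries. CLDN4 read 215, 330 and 258 TPM and overlapped with day 0 (log2 -0.27, SE 0.16, adjusted p = 0.171). KRT8 read 2091, 2692 and 2358 TPM, below the day 0 libraries but without passing the test (log2 -0.31, SE 0.19, adjusted p = 0.182). Markers of surface ectoderm stood at 30.0 to 35.4 TPM in sum, against 10.1 to 11.5 TPM on day 0. Of these 4 genes TFAP2A, at 20.1 TPM, and TP63, at 7.57 TPM, were above their 0.47 and 0.06 TPM of day 0, whereas GRHL3 was at 1.57 to 3.34 TPM against 5.76 to 7.62 TPM, and KRT5 at 1.19 to 3.04 TPM against 2.41 to 3.77 TPM. Their part in these levels was not tested. In sum, 5 of 21 genes were higher than on day 0 and 10 lower, where 23.7% of all genes were higher and 24.0% lower, with a median log2 change of -0.44 beside -0.03. With all 21 libraries in the model 3 were lower, and with a minimum fold of 2, 5. Of 22 tight junction partners 3 were higher, ESAM (log2 5.48, SE 0.49), JAM3 and CGNL1, and 11 lower. Among 16 desmosome and keratin partners 5 were higher and 7 lower, and among 18 epithelial regulators 4 were higher, including TP63 and TFAP2A, and 11 lower, including CDH1 (log2 -2.42, SE 0.20). Of the repressors 5 of 6 were higher (SNAI2 by a log2 of 3.54, SE 0.48), and of 12 other intermediate filament genes 6 were higher (NEFL by 4.79, SE 0.25) and 3 lower.

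The cardiomyocyte and neural progenitor groups each split by library. KRT8 read 563, 12.3 and 476 TPM in cardiomyocyte replicates 1 to 3 and 524, 9.12 and 4.64 TPM in neural progenitor replicates 1 to 3. The library labelled cardiomyocyte replicate 2 thus sat with the low neural progenitor libraries, and the one labelled neural progenitor replicate 1 with the high cardiomyocyte ones. KRT19 (264, 4.62 and 213 TPM, then 186, 1.84 and 4.18 TPM), KRT18 (105, 4.79 and 87.2 TPM, then 101, 4.58 and 1.85 TPM) and CLDN6 (13.6, 0.64 and 14.6 TPM, then 26.0, 0.51 and 0 TPM) split in the same way. KRT222 showed the mirror image, at 0, 7.49 and 0.07 TPM and then 0, 8.15 and 5.85 TPM. As labelled, 0 of 22 genes were higher and 13 lower in cardiomyocytes than on day 0 (22.9% and 18.8% of 14248 genes), and 0 higher and 15 lower in neural progenitors (23.8% and 19.0%). No higher gene was called by DESeq2 or limma, while 1 was called in neural progenitors with looser count filters, and 14 and 15 genes had an unadjusted p under 0.05 in either direction. The lower genes in cardiomyocytes were CLDN3, CLDN4, CLDN6, CLDN7, CLDN9, CLDN10, CLDN11, KRT4, KRT5, KRT6A, KRT18, KRT79 and KRT80. In neural progenitors CLDN1, KRT8 and KRT19 were added and CLDN11 did not pass. In these fits the median of all genes was shifted by a log2 of 0.20, beside -3.77 and -3.68 for the claudins and keratins (-2.81 and -3.68 with genes at 0 in a group set to 3 counts).

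Leaving out these 2 libraries leaves 2 in each group, and 1 gene was higher and 16 lower in cardiomyocytes (30.3% and 31.4% of 14485 genes), 1 higher and 14 lower in neural progenitors (32.0% and 31.8%). In cardiomyocytes CLDN4 was 41.5-fold (log2 -5.37, SE 0.27), CLDN7 45.9-fold (-5.52, SE 0.37) and CLDN6 18.1-fold (-4.18, SE 0.19) below day 0. Among the keratins, KRT18 (log2 -4.03, SE 0.22), KRT8 (-2.09, SE 0.22) and KRT19 (-1.77, SE 0.19) were lower. KRT6A, with 3 counts against 377, stood at a ratio of 53.1 (exact 95% counting interval 18.0 to 259). As labelled, KRT8 (log2 -2.66, SE 1.31, adjusted p = 0.113) and KRT19 (-2.34, SE 1.25, 0.142) had not passed. CLDN8 was the gene that was higher (log2 2.30, SE 0.86, adjusted p = 0.0266), on 13 and 6 counts and with libraries that overlapped. The genes added to the lower ones were KRT8, KRT19 and KRT222, the last with 1 count against 26 (ratio 10.99, exact 95% counting interval 1.81 to 451).

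Calls made as labelled rested on single libraries for a few genes. KRT80 in cardiomyocytes (log2 -1.65, SE 0.64) lost its call without any one of the day 0 libraries or cardiomyocyte replicates 1 and 2 (adjusted p = 0.0617 to 0.124). In neural progenitors, KRT8 (log2 -3.67, SE 1.37), KRT19 (-3.70, SE 1.32) and KRT5 (-2.42, SE 0.90) lost theirs without any one of the day 0 libraries or neural progenitor replicates 2 and 3 (adjusted p = 0.0519 to 0.109). KRT80 (-2.12, SE 0.67) lost it without day 0 replicate 2 (0.0524) or neural progenitor replicate 2 (0.0689), and CLDN1, with 2 counts against 28, without day 0 replicate 1 or 2 or neural progenitor replicate 1 or 2 (0.096 to 0.112).

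In neural progenitors without that library, CLDN4 had 1 count and CLDN6 1 count, against 5032 and 6013 on day 0, ratios of 1918 (exact 95% counting interval 344 to 75782) and 2292 (411 to 90553). KRT18 (log2 -9.42, SE 0.32), KRT19 (-9.17, SE 0.32) and KRT8 (-8.91, SE 0.34) were lower by more than in cardiomyocytes. The others that were lower were CLDN3, CLDN7, CLDN9, CLDN10, KRT4, KRT5, KRT6A, KRT79 and KRT80, while CLDN1 did not pass (adjusted p = 0.0567). KRT222 was higher (log2 3.08, SE 0.63, edgeR adjusted p = 0.000294). A direct comparison of the 2 lineages, added after the data had been seen and without these libraries, found 9 of 22 genes higher in cardiomyocytes and 1 lower (31.9% and 31.8% of all genes). KRT19 was 169-fold higher there (log2 7.40, SE 0.32), KRT8 114-fold (6.83, SE 0.33) and KRT18 42.1-fold (5.40, SE 0.32), and CLDN6 had 141 counts against 1 (ratio 127, interval 22.5 to 5057). CLDN4, CLDN7, CLDN8, KRT5 and KRT80 were the others that were higher, on 7 to 51 counts against 0 to 6. KRT222 was the gene that was lower, with 1 count against 92 (ratio 102, interval 17.9 to 4073). Summed claudins were 41.9 to 45.6 TPM in the 2 cardiomyocyte libraries and 28.7 to 33.9 TPM in the 2 neural progenitor ones, mostly CLDN12 in the latter.

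The lists of related genes were also counted in these 2 lineages, without the 2 libraries, and did not all move the same way. Over all genes, 30.3% were higher and 31.4% lower in cardiomyocytes, and 32.0% and 31.8% in neural progenitors. In cardiomyocytes 3 of 22 tight junction partners were higher and 16 lower than on day 0, 1 of 17 desmosome and keratin partners was higher and 12 lower, and 0 of 18 epithelial regulators were higher and 15 lower, with CDH1 at 1.14 TPM. In neural progenitors the same lists had 4 higher and 14 lower, 1 and 11, and 2 and 14. Repressors of epithelial genes were 4 higher and none lower in cardiomyocytes and 2 higher and 3 lower in neural progenitors, and other intermediate filaments 4 and 6, then 7 and 3.

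The balance of the 2 keratin types was close, but not the same, in clones 1 to 3, on days 0 to 3 and in the endothelial libraries. KRT8 against KRT18 stood at a TPM ratio of 0.92 to 1.18 in clones 1 to 3, 1.30 to 1.499 on day 0 of clone 8, 1.15 to 1.42 on day 1, 1.31 to 1.40 on day 2, 1.58 to 1.61 on day 3 and 1.74 to 1.86 in the endothelial libraries. With KRT19 and the lesser keratins included, the summed type II over type I ratio was 0.65 to 0.86 in clones 1 to 3, 0.90 to 0.96 on day 0, 1.03 to 1.28 on day 1, 1.11 to 1.22 on day 2, 1.00 to 1.07 on day 3 and 1.08 to 1.14 in the endothelial libraries. Among the keratins analysed, summed type II thus exceeded type I in every library of days 1 to 3. It fell short of type I in every library of the clones and of day 0. In day 3 replicate 1 the margin was small, at 7051 against 7034 TPM. The balance was not close in the 2 last groups. In cardiomyocyte replicates 1 and 3 and neural progenitor replicate 1, KRT8 over KRT18 was 5.17 to 5.46 and type II over type I 1.52 to 1.81. In cardiomyocyte replicate 2 and neural progenitor replicates 2 and 3 these were 1.99 to 2.56 and 0.18 to 0.49, with KRT8 at only 4.64 to 12.3 TPM. The sums leave out every keratin symbol that was not found, KRT7, KRT13, KRT14, KRT16 and KRT17 among them, so they are not complete. These ratios are of levels within a library and were not tested.

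**Figure D4:**
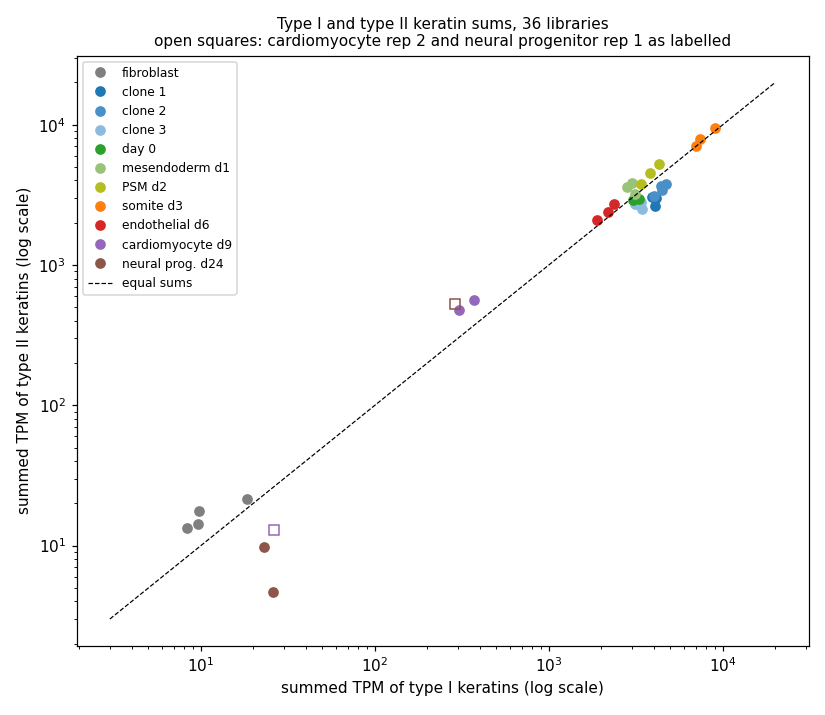
Summed type II keratin TPM against summed type I keratin TPM, 1 point per library on logarithmic axes, coloured by group. Libraries of clones 1 to 3 lie at ratios of 0.65 to 0.86, those of day 3 at 1.00 to 1.07 and at the highest levels, and fibroblasts at the low end.

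Clone 8 on day 0 can be set beside clones 1 to 3, which were undifferentiated too, but the sets differ in depth and culture and were modelled apart, so no test was made. CLDN10 was 96.4 to 106 TPM in clone 8 and 20.1 to 54.6 TPM in the others, and CLDN4 was 306 to 352 TPM against 386 to 735 TPM. KRT18 (1924 to 2249 TPM against 2235 to 3376 TPM), KRT8 and KRT19 overlapped. KRT4, at 1.69 to 2.86 TPM, was above all 11 libraries of the other clones (0.14 to 1.03 TPM).

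The remaining genes were low. CLDN11, known from myelin and testis, ran from 0 to 10.52 TPM with its highest mean in the endothelial libraries (6.80 TPM, SD 3.61) and passed as lower in cardiomyocytes as labelled, where it had no count against 26 on day 0 (at least 5.47-fold lower). CLDN15, a pore former of the gut, reached at most 3.19 TPM, and KRT26 was highest in neural progenitor replicate 3, at 3.87 TPM. CLDN18 and CLDN20 had their highest means on day 3 (0.82 and 0.97 TPM), and CLDN2 reached at most 0.7 TPM. At these depths such levels rest on few reads.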

How the data were processed

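RNA-seq libraries of pig cells (LM-seq, per the labels' protocols) were aligned with Bowtie 1.2.3 and quantified with RSEM 1.2.3 on Sscrofa11.1, per the submitters' processing notes. The authors deposited 2 tables of 20683 genes by 36 libraries, one of RSEM expected counts and one of TPM. Strandedness is not given in the sources used here. Total counts ran from 1845333 to 69879325 per library. Genes were matched to RefSeq (Sscrofa11.1) by symbol, 57 of 57.

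Counts were rounded and tested with edgeR 4.0.16 (quasi-likelihood, TMM scaling, filterByExpr with a minimum count of 10, R 4.3.3), adjusted by Benjamini-Hochberg over all genes tested, with calls at 0.05. Fibroblasts with clones 1 to 3 (15 libraries), clone 8 days 0 to 3 with endothelial cells (15) and all of clone 8 (21) were fitted apart. The last was repeated without the 2 libraries that go against their labels. The edgeR and DESeq2 fits were also run on counts simulated with the spread that edgeR estimated, and the outcome is not given. Such counts cannot show how the fits handle libraries that go against their labels or groups near 0. DESeq2 1.42.0, limma 3.58.1 on log2(TPM + 1) and log2(TPM + 0.1), RLE scaling, other count filters, a minimum fold of 2, the replicate number as a block, other sets of libraries and leaving out each library were alternatives. A fold against a group at 0 was bounded with 3 counts over the group. Day 3 against day 0 and cardiomyocytes against neural progenitors were added after seeing the data.

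The genes and lists were chosen with earlier results of these data known. Genes with a group mean of 10 TPM or more are described with values, those from 1 to 10 TPM with their highest group, and the rest are counted. Called genes are named, with statistics for at most 5 with the largest change each way (others given have a bearing on a pair or a lost call). From the lists of related genes at most 3 each way are named. A value for 1 gene of the related lists is not reported here.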

Additional observations from a re-analysis of the deposited data

Results flagged for a closer look

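In groups of 4 libraries, 1 value stood apart from the other 3 by Dixon's test at the 95% level for 4 of 37 combinations of gene and group tested. CLDN12 in clone 2 was 18.21 TPM in replicate 4, against 22.06 to 22.15 TPM in the others. CLDN12 in clone 3 was 20.21 TPM in replicate 4, against 12.59 to 13.19 TPM. CLDN5 in fibroblasts was 5.29 TPM in replicate 4, against 1.59 to 2.06 TPM, and KRT79 in clone 2 was 5.27 TPM in replicate 4, against 6.38 to 6.58 TPM. At that level chance alone gives such a value in about 5% of groups.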

How the results depend on the processing

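Of 112 results for named genes, 67 kept their call and direction under every alternative run that gave the gene an adjusted p. None were reversed, and 174 of 1973 recomputed values were no longer called. Runs in which a gene was filtered out or had no adjusted p are not counted, so DESeq2 recomputed only 109 of the 112. Counts of genes called moved as follows. DESeq2 called 5 higher and 2 lower for clone 1 against 2, 7 and 1 for clone 1 against 3, 1 higher for clone 2 against 3 and 1 lower for day 2. With no count filter or a minimum total of 10, 1 was higher in neural progenitors. limma on log2(TPM + 1) called 5 higher (clone 1 against 2), 3 higher (clone 2 against 3), 1 higher (day 1) and 0 lower (day 3), and on log2(TPM + 0.1) 1 higher (clone 2 against 3), 1 higher (day 1), 1 lower (day 2) and 0 lower (day 3). With a minimum fold of 2, clone 1 had 1 higher and 0 lower than clone 2 and 1 higher than clone 3, and 0 were higher on day 1, 3 higher on day 2, 0 lower on day 3 and 5 lower in endothelial cells. With only the groups compared in the model, 5 were higher for clone 1 against 2, 2 for clone 2 against 3, 6 on day 2, 0 lower on day 3 and 8 lower in neural progenitors. With all 21 libraries of clone 8, 0 were higher and 8 lower on day 1, 4 higher on day 2, 0 lower on day 3 and 3 lower in endothelial cells. Without cardiomyocyte replicate 2 and neural progenitor replicate 1, 1 was higher in each of these groups. The cause of these shifts was not tested.

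Leaving out 1 library at a time gave 15 to 16 higher and 3 to 5 lower (clones against fibroblasts), 2 to 4 and 1 to 1 (clone 1 against 2), 1 to 5 and 0 to 1 (clone 1 against 3), 0 and 0 (clone 2 against 3), 1 to 3 and 13 to 14 (day 1), 7 to 10 and 0 (day 2), 13 to 15 and 0 to 2 (day 3), 5 to 5 and 8 to 10 (endothelial), 0 and 12 to 14 (cardiomyocytes), and 0 and 10 to 14 (neural progenitors). Deviations of same-numbered libraries correlated from -0.81 to 0.91 in clone 8 (median 0.038; different numbers -0.96 to 0.92, median -0.0032) and from -0.36 to 0.22 in the other set (median -0.039; different numbers -0.21 to 0.36), so not every pair exceeded 0.1 and the numbers were not taken as pairs. The clone 8 deviations were taken from group means as labelled, which include the 2 libraries that go against their labels. For the cardiomyocyte and neural progenitor groups they thus cannot show whether the numbers pair. With the replicate number as a block, 2 were higher for clone 1 against 3 and 1 was lower on day 2. Depth limits the genes of few counts in clone 8.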
